A study of Mus musculus with 16 samples.

Results

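The 51 genes described here act in the G2 phase of the cell cycle and in mitosis, and they were picked by name out of 46078 genes counted in red cell precursors of mouse bone marrow. All 51 were found in the counts, and all 51 passed the minimum of 10 counts in every comparison. Polychromatic (Poly-E) and orthochromatic (Ortho-E) erythroblasts were compared in both genotypes, *Ypel4*+/+ and *Ypel4*-/-, which gave 4 groups of 4 libraries. Both populations were sorted from steady-state bone marrow by Ter119 and CD44, and dead cells were excluded with propidium iodide. All samples carry the same strain label, which joins a C57BL/6N-A<tm1Brd> background with the allele Ypel4<tm1a(EUCOMM)Wtsi>/WtsiIeg. The label of genotype calls the *Ypel4*-/- mice homozygous mutant and the *Ypel4*+/+ mice wild-type, and no treatment is named. The null allele is a gene trap in the germline and is not limited to erythroid cells. The labels gave no age. The comparison of main interest was Ortho-E against Poly-E, made separately in each genotype.

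G2 and mitosis genes run the last part of each cell division. The kinase CDK1 with a B-type cyclin drives entry into mitosis, kinetochores and spindle fibres line up the chromosomes, a checkpoint holds the cell until every chromosome is attached, and the anaphase-promoting complex (APC/C), a ubiquitin ligase, then marks securin and cyclins for destruction. Poly-E cells still divide. Ortho-E cells are the following stage, in which division has stopped and the nucleus is condensed and expelled.

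Library totals ranged from 2670173 to 12451234 counts. The counts of a member in a single library ranged from 12 (*Ttk*) to 132015 (*Mki67*). *Ypel4* itself, read to check the labels, was at 716, 489.8, 601 and 501 CPM in the *Ypel4*+/+ Poly-E libraries and at 9.90, 15.4, 23.6 and 14.6 in the *Ypel4*-/- Poly-E libraries. In Ortho-E it was at 4638, 4432, 5351 and 5439.9 CPM in *Ypel4*+/+ and at 175, 202, 219.5 and 224 in *Ypel4*-/- libraries, so every library matched its label. The 12 erythroid marker genes summed to 59640 to 72210 CPM in Poly-E and to 239300 to 328300 CPM in Ortho-E libraries. Markers of other bone marrow cells were low. The highest sum in any library was 113 CPM over 5 megakaryocyte markers, 47.7 over 6 B cell markers, 20.5 over 10 granulocyte markers, 12.3 over 7 macrophage markers, 0.571 over 3 stem and progenitor markers and 0.450 over 4 T cell markers. The megakaryocyte sum was 26.7 to 35.6 CPM in Poly-E and 90.0 to 113 CPM in Ortho-E, with *Gp1bb* at 0 in all groups. The B cell sum was 13.6 to 31.6 CPM in Poly-E and 21.1 to 47.7 CPM in Ortho-E. The T cell marker *Cd3e* was at 0 in all groups. The part of these cells in the changes below was not tested.

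CPM is the count of a gene set against the size of its library, here after scaling by the trimmed mean of M values (TMM), which sets the bulk of the genes level between libraries. The TMM factors were 1.45 to 1.64 in Poly-E and 0.606 to 0.726 in Ortho-E libraries, so the choice of scaling moved every fold change between the populations. With plain library totals in place of TMM, the median log2 fold change of all genes moved by -1.26 in *Ypel4*+/+ and by -1.39 in *Ypel4*-/- mice. Of the genes called, 54.9% were lower in Ortho-E with TMM and 85.3% with library totals in *Ypel4*+/+, and 51.6% and 84.5% in *Ypel4*-/- mice. Under each of the 4 scalings tried, the same 48 members lay below the median of all genes tested and the same 3, *G2e3*, *Cenpe* and *Nusap1*, lay above it, in both genotypes. In bulk RNA, fewer cells that carry a transcript and less transcript per cell cannot be told apart.

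Most of the 51 genes fell from Poly-E to Ortho-E. In *Ypel4*+/+ mice 45 members were called lower and 3 higher at an adjusted p of 0.05, against 32.1% of all 11747 genes tested called lower and 26.4% called higher. The numbers in *Ypel4*-/- mice were again 45 lower and 3 higher, against 31.5% and 29.5% of 11973 genes. The calls were shared: 44 members were lower in both genotypes, 3 were higher in both (and none of these on plain library totals), and 2 were called in neither. The median log2 fold change of the members was -1.52 in *Ypel4*+/+ and -1.46 in *Ypel4*-/- mice, where the medians of all genes were -0.19 and -0.09. With a test against a 2-fold change, 32 members were lower by more than 2-fold in *Ypel4*+/+ mice (16% of all genes) and 31 in *Ypel4*-/- mice (15.3%), and the 31 were among the 32. A single member, *G2e3*, was higher by more than 2-fold in each genotype, where 15.2% of all genes in *Ypel4*+/+ and 17.7% in *Ypel4*-/- mice were. In 45 members the Ortho-E libraries all lay below the Poly-E libraries, in *Ypel4*+/+ as in *Ypel4*-/- mice, against 30.6% and 32.4% of all genes. In the 3 that were called higher they all lay above, as in 22.6% and 23.1% of all genes.

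The fall was seen in each pair of Poly-E and Ortho-E libraries that carry a shared number in their names. The number was read as the mouse, which the data do not settle. The median log2 ratio of the members, Ortho-E over Poly-E, was -1.48, -1.59, -1.72 and -1.37 in the 4 *Ypel4*+/+ mice and -1.65, -1.73, -1.29 and -1.55 in the 4 *Ypel4*-/- mice. At least 47 of the 51 members were lower in the Ortho-E library of each mouse. As a share of all counts, with no TMM scaling, the 51 genes took 4.22% ± 0.264 (SD, n = 4) of a *Ypel4*+/+ Poly-E library and 0.943% ± 0.0659 of a *Ypel4*+/+ Ortho-E library. In *Ypel4*-/- mice the shares were 4.19% ± 0.333 and 0.922% ± 0.0556. Most genes fell on this scale: with plain library totals the median log2 fold change of all genes was -1.45 in *Ypel4*+/+ and -1.47 in *Ypel4*-/- mice. The medians of the members were -2.81 and -2.88.

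**Figure D1:**
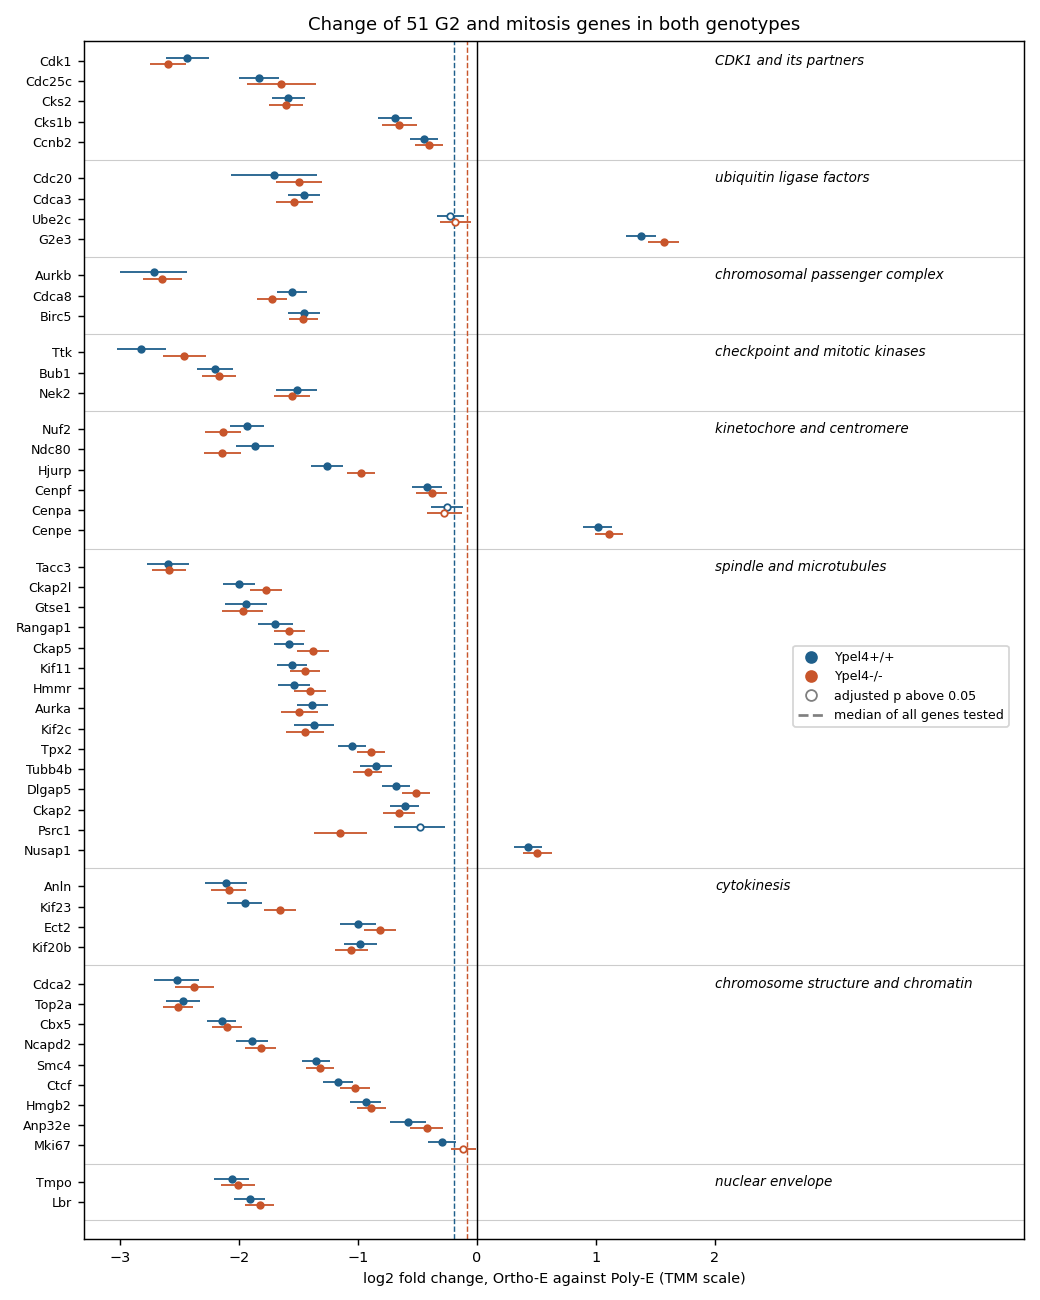
Log2 fold change (TMM scale) of each of the 51 genes from Poly-E to Ortho-E in *Ypel4*+/+ (blue) and *Ypel4*-/- mice (orange), by role, with standard errors. Points are left of 0 for 48 genes in both genotypes, and *G2e3*, *Cenpe* and *Nusap1* are right of 0, of which *Cenpe* and *Nusap1* turn negative with plain library totals. Open points had an adjusted p above 0.05, and dashed lines mark the median of all genes tested.

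The start of these genes was read from RefSeq promoter windows (GRCm38.p6), which run from 250 bases before to 50 bases after the transcription start. A window was found for 45 of the 51 members. Many cell cycle genes carry the letters TTTGAA, known as the CHR element, near their start, often with a CCAAT box upstream, and are repressed through them by the DREAM complex when cells leave the cycle. TTTGAA on either strand stood in the window of 33 of the 45 members (73.3%), and in 20.2% of the 27025 genes with a window. CCAAT on either strand stood in 34 of the 45 (75.6%), and in 41.1% of all genes. Where the motifs meet they can share at most 1 end letter. None of the 3 members that were higher in Ortho-E had TTTGAA in its window, and *Cenpe* alone of the 3 had CCAAT. The presence of TTTGAA did not go with a larger change among the members. Their median log2 fold change was -1.46 in the 33 with it and -1.55 in the 12 without it in *Ypel4*+/+ mice, and -1.45 and -1.58 in *Ypel4*-/- mice. The windows of the 3 members that were higher follow, and after them those of the 3 with the lowest log2 fold change in *Ypel4*+/+ mice for which a window was found. Capitals mark TTTGAA or CCAAT on either strand.
*G2e3*, chr12:51347980-51348279, + strand: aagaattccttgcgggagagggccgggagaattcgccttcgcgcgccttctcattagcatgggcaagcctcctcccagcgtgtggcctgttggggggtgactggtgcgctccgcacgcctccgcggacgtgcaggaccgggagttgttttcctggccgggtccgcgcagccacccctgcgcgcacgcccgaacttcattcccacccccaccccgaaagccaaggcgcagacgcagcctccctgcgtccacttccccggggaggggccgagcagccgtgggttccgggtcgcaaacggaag
*Cenpe*, chr3:135212313-135212612, + strand: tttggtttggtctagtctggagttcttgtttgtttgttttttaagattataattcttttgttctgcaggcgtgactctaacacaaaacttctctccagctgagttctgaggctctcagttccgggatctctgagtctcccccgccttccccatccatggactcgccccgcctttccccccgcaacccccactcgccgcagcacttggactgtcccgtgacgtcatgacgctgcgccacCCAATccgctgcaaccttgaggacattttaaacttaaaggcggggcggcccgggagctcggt
*Nusap1*, chr2:119618048-119618347, + strand: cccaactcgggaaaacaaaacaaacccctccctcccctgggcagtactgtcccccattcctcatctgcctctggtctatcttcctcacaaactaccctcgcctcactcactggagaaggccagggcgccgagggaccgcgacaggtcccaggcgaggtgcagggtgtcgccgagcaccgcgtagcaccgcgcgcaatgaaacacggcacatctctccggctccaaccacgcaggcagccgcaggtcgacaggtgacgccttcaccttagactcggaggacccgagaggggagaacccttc
*Ttk*, chr9:83834439-83834738, + strand: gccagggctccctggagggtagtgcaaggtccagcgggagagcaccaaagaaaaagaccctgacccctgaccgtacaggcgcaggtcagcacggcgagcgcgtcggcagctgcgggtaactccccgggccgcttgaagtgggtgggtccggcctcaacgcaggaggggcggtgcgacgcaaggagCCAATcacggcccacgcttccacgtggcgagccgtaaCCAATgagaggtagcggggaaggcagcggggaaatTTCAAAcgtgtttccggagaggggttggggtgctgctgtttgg
*Tacc3*, chr5:33657878-33658177, + strand: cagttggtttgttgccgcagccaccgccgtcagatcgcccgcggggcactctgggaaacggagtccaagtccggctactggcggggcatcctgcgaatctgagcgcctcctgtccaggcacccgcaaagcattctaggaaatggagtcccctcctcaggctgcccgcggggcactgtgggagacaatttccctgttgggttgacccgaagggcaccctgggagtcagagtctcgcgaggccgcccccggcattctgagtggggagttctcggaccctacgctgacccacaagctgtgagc
*Top2a*, chr11:99024140-99024439, - strand: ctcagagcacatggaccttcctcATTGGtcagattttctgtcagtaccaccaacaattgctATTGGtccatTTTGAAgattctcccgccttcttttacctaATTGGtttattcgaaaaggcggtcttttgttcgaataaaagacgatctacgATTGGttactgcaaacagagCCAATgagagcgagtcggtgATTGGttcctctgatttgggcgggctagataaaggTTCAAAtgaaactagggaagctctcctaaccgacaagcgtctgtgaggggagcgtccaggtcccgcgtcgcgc
The window of *Top2a* held 2 TTTGAA and 6 CCAAT, that of *Ttk* held 1 and 2, and that of *Tacc3*, a gene with nearly the same change, held neither. A motif match here is only a match of letters.

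CDK1 and its partners fell as a group, with 5 of 5 members lower in both genotypes. *Cdk1*, the kinase that drives entry into mitosis, fell furthest of the 5. *Cdk1* was at 359.7, 456, 341 and 357 CPM in the *Ypel4*+/+ Poly-E libraries and at 64.2, 74.9, 42.3 and 91.9 in the *Ypel4*+/+ Ortho-E libraries. *Cdk1* in *Ypel4*-/- mice was at 439, 432, 279.9 and 364 CPM in Poly-E libraries and at 62.1, 47.8, 44.96 and 67.3 in Ortho-E. The ranges lay far apart in both genotypes, with log2 fold changes of -2.43 ± 0.18 (SE) in *Ypel4*+/+ and -2.60 ± 0.15 in *Ypel4*-/- mice. *Ccnb2*, a B-type cyclin, changed least. *Ccnb2* was at 455, 499, 434 and 425 CPM in *Ypel4*+/+ Poly-E and at 343, 358, 279 and 323 in *Ypel4*+/+ Ortho-E libraries. The *Ypel4*-/- libraries held *Ccnb2* at 467, 511, 379 and 427 CPM in Poly-E libraries and at 298, 268, 305 and 324 in Ortho-E. All Ortho-E libraries were lower, but by a small amount, with log2 fold changes of -0.45 ± 0.12 (adjusted p = 0.00206) and -0.40 ± 0.12 (adjusted p = 0.00322). *Cdc25c*, a phosphatase that activates CDK1, and *Cks2*, a small CDK1-binding subunit, fell to 28.02% and 32.6% of the Poly-E mean in *Ypel4*+/+ mice. The related subunit *Cks1b* kept 60.6% of it.

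Of the 4 ubiquitin ligase factors, *Cdc20* and *Cdca3* were called lower in both genotypes and *Ube2c* in neither. *G2e3* was called higher in both, and this call was lost only on plain library totals. *Cdc20*, the activator of APC/C at the start of anaphase, was at 86.7, 104, 162 and 179 CPM in *Ypel4*+/+ Poly-E and at 26.2, 26.9, 39.6 and 62.3 in *Ypel4*+/+ Ortho-E libraries. *Cdc20* in *Ypel4*-/- mice was at 97.2, 119, 117 and 163 CPM in Poly-E libraries and at 28.8, 40.8, 31.5 and 55.4 in Ortho-E. It fell in both genotypes, by log2 fold changes of -1.70 ± 0.36 and -1.50 ± 0.19. *Cdca3*, a trigger of mitotic entry that works through a ubiquitin ligase, fell to a like degree (-1.46 ± 0.14 and -1.54 ± 0.15).

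*Ube2c*, the ubiquitin-conjugating enzyme of APC/C, kept most of its level on the TMM scale. *Ube2c* was at 513, 637, 575 and 577 CPM in *Ypel4*+/+ Poly-E and at 485, 478, 465 and 494 in *Ypel4*+/+ Ortho-E libraries. *Ube2c* in *Ypel4*-/- libraries was at 547, 639, 379 and 555 CPM in Poly-E libraries and at 400.4, 373, 442 and 442 in Ortho-E. The *Ypel4*+/+ ranges did not overlap and the *Ypel4*-/- ranges did, and the log2 fold changes of -0.23 ± 0.11 (adjusted p = 0.0929) and -0.18 ± 0.13 (adjusted p = 0.226) were not called. With the mouse as a block in the fit, *Ube2c* was called lower in *Ypel4*+/+ mice at -0.22 (adjusted p = 0.0205). In *Ypel4*-/- mice it was called with all 16 libraries in a fit (-0.35, adjusted p = 0.0158) and without *Ypel4*-/- Poly-E replicate 3 (-0.31, adjusted p = 0.0281). *Ube2c* on plain library totals was lower in both genotypes, at -1.51 (adjusted p = 9.4e-12) and -1.60 (adjusted p = 2.26e-12). Of its 2600 exon bases, 592 lie over exons of another gene (*Tnnc2*), where reads were left out.

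*G2e3*, a ubiquitin ligase named for its expression in G2, rose in both genotypes on the TMM scale. It lies at chr12:51348061-51376986 on the + strand of GRCm38. *G2e3* was at 45.4, 50.3, 44.6 and 53.05 CPM in *Ypel4*+/+ Poly-E and at 125, 110.3, 129 and 126 in *Ypel4*+/+ Ortho-E libraries. *Ypel4*-/- libraries held *G2e3* at 49.3, 50.6, 41.2 and 46.5 CPM in Poly-E libraries and at 108.9, 131, 138 and 116 in Ortho-E. No Ortho-E library was below 108.9 CPM and no Poly-E library above 53.0 CPM, with log2 fold changes of 1.38 ± 0.12 (adjusted p = 2.82e-10) and 1.57 ± 0.13 (adjusted p = 2.27e-12). On plain library totals the same gene changed by 0.09 in *Ypel4*+/+ (adjusted p = 0.535) and 0.15 in *Ypel4*-/- mice (adjusted p = 0.289), where the median of all genes was -1.45 and -1.47.

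The 3 measured members of the chromosomal passenger complex, which corrects faulty attachments of chromosomes to the spindle and starts cytokinesis, all fell by more than 2-fold in both genotypes. *Aurkb*, its kinase, was at 197, 231, 289 and 290.0 CPM in *Ypel4*+/+ Poly-E and at 27.5, 22.9, 33.6 and 60.4 in *Ypel4*+/+ Ortho-E libraries. *Aurkb* in *Ypel4*-/- mice was at 211, 227, 198 and 272 CPM in Poly-E libraries and at 28.8, 24.1, 28.2 and 47.1 in Ortho-E. About 14.3% of the Poly-E mean remained in *Ypel4*+/+ and 14.1% in *Ypel4*-/- mice, with log2 fold changes of -2.72 ± 0.28 and -2.65 ± 0.16. *Birc5*, which encodes survivin, was at 611, 699, 559.6 and 542 CPM in *Ypel4*+/+ Poly-E and 224, 227, 166 and 243 in *Ypel4*+/+ Ortho-E libraries. *Birc5* in *Ypel4*-/- mice was at 615, 682, 489 and 521 CPM in Poly-E libraries and 196, 167, 181 and 199 in Ortho-E. Its log2 fold changes of -1.46 ± 0.13 and -1.46 ± 0.12 were the smallest of the complex. *Cdca8*, which encodes borealin, was at 327, 363, 319 and 315 CPM in *Ypel4*+/+ Poly-E and 123, 114, 91.3 and 112 in *Ypel4*+/+ Ortho-E, and the *Ypel4*-/- libraries are given with the genotype comparison below. Its log2 fold changes were -1.56 ± 0.12 and -1.73 ± 0.13.

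All 3 checkpoint and mitotic kinases also fell by more than 2-fold in both genotypes. *Ttk*, the kinase at the top of the spindle checkpoint, had the lowest log2 fold change of the 51 genes in *Ypel4*+/+ mice. *Ttk* was at 40.9, 53.99, 52.7 and 58.3 CPM in *Ypel4*+/+ Poly-E and at 5.91, 10.9, 4.00 and 8.40 in *Ypel4*+/+ Ortho-E libraries. *Ttk* in *Ypel4*-/- mice was at 50.3, 54.1, 37.7 and 53.6 CPM in Poly-E libraries and at 7.20, 6.68, 7.88 and 9.45 in Ortho-E. The log2 fold changes were -2.82 ± 0.21 and -2.46 ± 0.18, on Ortho-E counts as low as 12 in a library. *Bub1*, a kinase that loads checkpoint proteins on kinetochores, was at 138, 152, 118 and 135 CPM in *Ypel4*+/+ Poly-E and 28.3, 22.9, 24.3 and 37.3 in *Ypel4*+/+ Ortho-E libraries. *Bub1* in *Ypel4*-/- mice was at 139, 146, 111 and 130.2 CPM in Poly-E libraries and 27.4, 22.995, 29.2 and 24.7 in Ortho-E, close to the *Ypel4*+/+ values. *Nek2*, a kinase that parts the centrosomes, was at 63.4, 89.4, 97.5 and 107 CPM in *Ypel4*+/+ Poly-E and 22.4, 27.4, 30.97 and 39.2 in *Ypel4*+/+ Ortho-E libraries. *Nek2* in *Ypel4*-/- mice was at 78.1, 84.6, 85.4 and 105 CPM in Poly-E libraries and 20.7, 28.9, 23.3 and 33.4 in Ortho-E. The log2 fold changes were -2.21 ± 0.15 and -2.17 ± 0.14 for *Bub1* and -1.52 ± 0.17 and -1.56 ± 0.15 for *Nek2*.

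Of the 6 kinetochore and centromere genes, 4 were called lower in each genotype, *Cenpe* was called higher and *Cenpa* was not called. *Ndc80* and *Nuf2* encode partners in the complex that grips spindle microtubules, and they changed alike. *Nuf2* was at 161, 198, 155 and 170.3 CPM in *Ypel4*+/+ Poly-E and at 41.4, 50.3, 33.97 and 49.4 in *Ypel4*+/+ Ortho-E libraries. *Nuf2* in *Ypel4*-/- mice was at 192, 203, 132 and 157 CPM in Poly-E libraries and at 39.1, 31.2, 28.5 and 39.2 in Ortho-E. Its log2 fold changes were -1.94 ± 0.14 and -2.14 ± 0.15, beside -1.86 ± 0.16 and -2.14 ± 0.15 for *Ndc80*. *Hjurp*, the chaperone that places CENP-A, kept 40.5% of the Poly-E mean in *Ypel4*+/+ mice, and *Cenpf*, a large kinetochore protein, kept 72.8%.

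*Cenpe*, the kinesin that carries chromosomes to the middle of the spindle, rose on the TMM scale. It lies at chr3:135212537-135273611 on the + strand. *Cenpe* was at 397, 362, 307 and 369.8 CPM in *Ypel4*+/+ Poly-E and at 712, 807, 605 and 708 in *Ypel4*+/+ Ortho-E libraries. *Cenpe* in *Ypel4*-/- mice was at 354, 379, 299 and 335 CPM in Poly-E libraries and at 588, 691, 685 and 638 in Ortho-E. Every Ortho-E library lay above every Poly-E library, with log2 fold changes of 1.01 ± 0.12 (adjusted p = 6.38e-08) and 1.105 ± 0.12 (adjusted p = 5.64e-10). On plain library totals *Cenpe* turned to -0.27 in *Ypel4*+/+ (adjusted p = 0.0447) and -0.32 in *Ypel4*-/- mice (adjusted p = 0.00838), still above the median of all genes. *Cenpa*, the histone that marks centromeres, overlapped between the populations. *Cenpa* was at 266, 265, 211 and 245 CPM in *Ypel4*+/+ Poly-E and at 241, 233, 156 and 182 in *Ypel4*+/+ Ortho-E libraries. *Ypel4*-/- libraries had *Cenpa* at 262, 338, 186 and 207 CPM in Poly-E libraries and at 216, 165, 160.1 and 181 in Ortho-E. The log2 fold changes of -0.25 ± 0.14 (adjusted p = 0.112) and -0.28 ± 0.15 (adjusted p = 0.118) were not called. With the mouse as a block in the fit they were called, at -0.27 (adjusted p = 0.00547) and -0.25 (adjusted p = 0.0108). *Cenpa* was also called without *Ypel4*+/+ Ortho-E replicate 1 (-0.34), without *Ypel4*-/- Ortho-E replicate 1 (-0.43) and without *Ypel4*-/- Poly-E replicate 3 (-0.39). In *Ypel4*-/- mice it was called as well with no filter (-0.37, adjusted p = 0.0196) and with all 16 libraries in a fit (-0.46, adjusted p = 0.0142). *Cenpa* on plain library totals was lower in both genotypes, at -1.54 (adjusted p = 1.86e-10) and -1.70 (adjusted p = 1.83e-06).

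**Figure D2:**
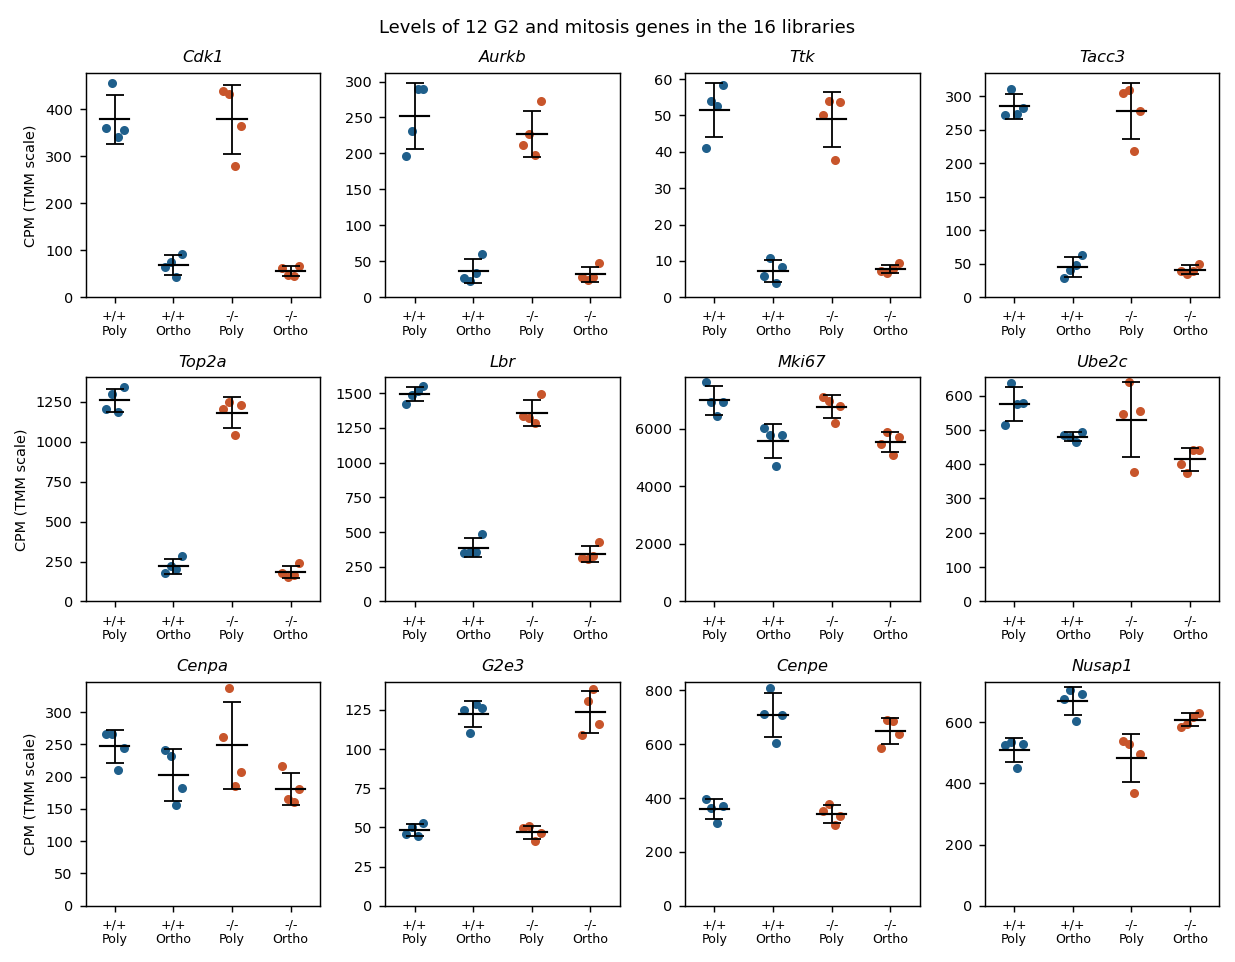
CPM (TMM scale, linear axes from 0) of 12 of the genes in the 16 libraries, with points for libraries, wide bars for the mean and whiskers for the SD over 4 libraries. *Cdk1*, *Aurkb*, *Ttk*, *Tacc3*, *Top2a* and *Lbr* drop steeply in Ortho-E, *Mki67*, *Ube2c* and *Cenpa* change little, and *G2e3*, *Cenpe* and *Nusap1* are higher, all on the TMM scale. On plain library totals *Cenpe*, *Nusap1*, *Mki67*, *Ube2c* and *Cenpa* are lower in Ortho-E.

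Spindle and microtubule genes were the largest group, with 13 of 15 called lower in *Ypel4*+/+ and 14 of 15 in *Ypel4*-/- mice. *Tacc3*, which clamps spindle fibres together, fell furthest. *Tacc3* was at 272, 312, 273 and 283 CPM in *Ypel4*+/+ Poly-E and at 28.3, 40.6, 48.3 and 63.4 in *Ypel4*+/+ Ortho-E libraries. *Tacc3* in *Ypel4*-/- mice was at 305, 310.2, 219 and 278 CPM in Poly-E libraries and at 39.6, 34.5, 39.1 and 50.4 in Ortho-E. Its log2 fold changes were -2.60 ± 0.17 and -2.59 ± 0.14, while its binding partner *Ckap5*, a microtubule polymerase, changed by -1.58 ± 0.12 and -1.38 ± 0.13. *Aurka*, the kinase that TPX2 activates on the spindle, changed by -1.38 ± 0.13 in *Ypel4*+/+ mice and *Tpx2* by -1.05 ± 0.12. *Kif11*, the motor that pushes the spindle poles apart, changed by -1.56 ± 0.12, and *Kif2c*, a motor that takes microtubules apart, by -1.37 ± 0.17. *Ckap2l*, *Gtse1*, *Rangap1* and *Hmmr* were also lower by more than 2-fold in both genotypes. *Dlgap5* and *Ckap2* were lower by less, at 60.96% and 64.2% of the Poly-E mean in *Ypel4*+/+ mice.

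*Tubb4b*, a beta-tubulin and per kilobase of exon the most abundant of the 15, was at 940.2, 1067, 934 and 969.6 CPM in *Ypel4*+/+ Poly-E and at 676, 535, 419 and 495 in *Ypel4*+/+ Ortho-E libraries. *Tubb4b* in *Ypel4*-/- mice was at 1047, 1214, 785 and 928 CPM in Poly-E libraries and at 452, 491, 429.9 and 484 in Ortho-E. Of its Poly-E mean, 54.3% remained in *Ypel4*+/+ and 46.7% in *Ypel4*-/- Ortho-E libraries, with log2 fold changes of -0.85 ± 0.13 and -0.92 ± 0.12. Reads that also fit other tubulin genes were not counted, so its level is uncertain.

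*Nusap1*, which bundles spindle fibres around chromosomes, was the third gene that rose on the TMM scale. It lies at chr2:119618298-119651244 on the + strand. *Nusap1* was at 527, 535, 452 and 529 CPM in *Ypel4*+/+ Poly-E and at 676, 707, 604 and 694 in *Ypel4*+/+ Ortho-E libraries. *Ypel4*-/- libraries held *Nusap1* at 539, 529, 369.9 and 496 CPM in Poly-E libraries and at 586, 596, 619 and 632 in Ortho-E. No Ortho-E library fell within the Poly-E range, and the log2 fold changes were 0.43 ± 0.12 (adjusted p = 0.00253) and 0.50 ± 0.12 (adjusted p = 0.000565). On plain library totals they turned to -0.86 (adjusted p = 1.62e-07) and -0.92 (adjusted p = 2.54e-08), above the median of all genes. *Nusap1* and its neighbour *Oip5* share 172 exon bases, whose reads were left out of both.

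*Psrc1* encodes a microtubule-binding protein of the spindle and had low counts. *Psrc1* was at 10.4, 12.6, 14.95 and 16.3 CPM in *Ypel4*+/+ Poly-E and at 6.76, 8.57, 11.99 and 10.3 in *Ypel4*+/+ Ortho-E libraries. *Psrc1* in *Ypel4*-/- mice was at 14.3, 13.97, 12.7 and 14.7 CPM in Poly-E libraries and at 6.30, 5.19, 7.55 and 4.25 in Ortho-E. The *Ypel4*+/+ ranges overlapped and the *Ypel4*-/- ranges did not. Its log2 fold change was called in *Ypel4*-/- mice (-1.15 ± 0.22, adjusted p = 3.43e-05) but not in *Ypel4*+/+ mice (-0.48 ± 0.21, adjusted p = 0.054), where the mouse as a block brought the call (-0.49, adjusted p = 0.019). It was also called there without *Ypel4*+/+ Poly-E replicate 1 (-0.48) or without *Ypel4*+/+ Ortho-E replicate 3 (-0.62). In *Ypel4*+/+ mice *Psrc1* was called as well with no filter (-0.53, adjusted p = 0.0405) and with all 16 libraries in a fit (-0.52, adjusted p = 0.0323). On plain library totals it was lower there at -1.77 (adjusted p = 1.08e-07). The test of the difference between the genotypes is given below.

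All 4 cytokinesis genes fell in both genotypes. *Anln*, which encodes the scaffold of the contractile ring, was at 249.6, 301, 286 and 325 CPM in *Ypel4*+/+ Poly-E and at 48.2, 55.4, 59.3 and 96.5 in *Ypel4*+/+ Ortho-E libraries. *Anln* in *Ypel4*-/- mice was at 279, 291, 228 and 305 CPM in Poly-E libraries and at 58.5, 50.8, 43.6 and 77.8 in Ortho-E. *Kif23*, the motor of the central spindle, was at 302, 296, 307 and 356 CPM in *Ypel4*+/+ Poly-E and at 59.1, 73.1, 78.9 and 104 in *Ypel4*+/+ Ortho-E libraries. Their Ortho-E libraries lay far below, with log2 fold changes in *Ypel4*+/+ mice of -2.11 ± 0.17 for *Anln* and -1.95 ± 0.14 for *Kif23*. *Kif23* in *Ypel4*-/- mice was at 286, 301, 249.6 and 327 CPM in Poly-E libraries and at 66.1, 75.7, 80.1 and 107 in Ortho-E. *Kif20b*, a motor of the midbody, was at 87.5, 82.1, 74.6 and 88.5 CPM in *Ypel4*+/+ Poly-E and at 35.9, 49.1, 35.97 and 44.1 in *Ypel4*+/+ Ortho-E libraries. *Kif20b* in *Ypel4*-/- mice was at 80.9, 84.4, 66.9 and 80.8 CPM in Poly-E libraries and at 30.1, 33.8, 36.1 and 33.8 in Ortho-E. The ring activator *Ect2* and *Kif20b* fell less than the other genes of the group, with log2 fold changes of -1.001 ± 0.15 and -0.98 ± 0.14 in *Ypel4*+/+ and -0.82 ± 0.13 and -1.06 ± 0.14 in *Ypel4*-/- mice.

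Of the 9 genes of chromosome structure and chromatin, 9 were called lower in *Ypel4*+/+ and 8 in *Ypel4*-/- mice. *Cdca2*, which recruits a phosphatase to chromosomes at mitotic exit, fell furthest in *Ypel4*+/+ mice. *Cdca2* was at 61.8, 75.9, 83.8 and 89.2 CPM in *Ypel4*+/+ Poly-E and at 10.6, 13.7, 8.66 and 18.7 in *Ypel4*+/+ Ortho-E libraries. *Cdca2* in *Ypel4*-/- mice was at 75.7, 83.6, 58.4 and 75.2 CPM in Poly-E libraries and at 14.8, 10.01, 11.5 and 13.9 in Ortho-E. *Top2a*, the topoisomerase that untangles sister chromosomes, had log2 fold changes of -2.47 ± 0.14 and -2.51 ± 0.13, beside -2.53 ± 0.19 and -2.38 ± 0.16 for *Cdca2*, so that *Top2a* had the lowest value of the group in *Ypel4*-/- mice. *Smc4* and *Ncapd2*, subunits of condensin, changed by -1.35 ± 0.12 and -1.89 ± 0.13 in *Ypel4*+/+ mice. *Cbx5*, which encodes the heterochromatin protein HP1 alpha, changed by -2.15 ± 0.12, and *Ctcf*, the insulator factor, by -1.17 ± 0.13. *Hmgb2* and *Anp32e*, a chromatin protein and a histone chaperone, kept 50.96% and 65.3% of the Poly-E mean in *Ypel4*+/+ mice.

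*Mki67*, which encodes the proliferation marker Ki-67, was the most abundant of the 51 genes per kilobase of exon in every group and changed little on the TMM scale. *Mki67* was at 7629.7, 6919, 6447 and 6910.0 CPM in *Ypel4*+/+ Poly-E and at 6012, 5779, 4686 and 5779 in *Ypel4*+/+ Ortho-E libraries. *Ypel4*-/- libraries held *Mki67* at 7114, 6961, 6184 and 6789 CPM in Poly-E libraries and at 5458, 5875, 5100.5 and 5694 in Ortho-E. All Ortho-E libraries were lower than all Poly-E libraries of their genotype, but by a small amount. The log2 fold change was -0.29 ± 0.12 in *Ypel4*+/+ mice (adjusted p = 0.0361) and -0.11 ± 0.11 in *Ypel4*-/- mice (adjusted p = 0.372). The *Ypel4*+/+ call was lost when any library other than *Ypel4*+/+ Ortho-E replicate 1 was left out (-0.30 to -0.13) with DESeq2 (-0.16, adjusted p = 0.24) and with filterByExpr (-0.11, adjusted p = 0.393). The *Ypel4*-/- value was called when all 16 libraries shared a fit (-0.29, adjusted p = 0.0224). *Mki67* on plain library totals was lower in both genotypes, at -1.58 (adjusted p = 5.21e-13) and -1.54 (adjusted p = 3.64e-15), near the medians of all genes on that scale (-1.45 and -1.47). *Mki67* took 25.1% ± 2.11 (SD, n = 4) of the counts of the 51 genes in *Ypel4*+/+ Poly-E and 37.5% ± 2.33 in *Ypel4*+/+ Ortho-E libraries. In *Ypel4*-/- mice it took 25.4% ± 0.888 and 39.8% ± 2.48.

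Both nuclear envelope genes fell in both genotypes. *Lbr*, the lamin B receptor that tethers chromatin to the envelope, was at 1424, 1491, 1514 and 1551 CPM in *Ypel4*+/+ Poly-E and at 349, 355, 359 and 488 in *Ypel4*+/+ Ortho-E libraries. *Lbr* in *Ypel4*-/- mice was at 1334, 1323, 1286 and 1495 CPM in Poly-E libraries and at 311, 303, 325 and 430.1 in Ortho-E. Its log2 fold changes were -1.91 ± 0.13 and -1.83 ± 0.12. *Tmpo*, which encodes lamina-associated polypeptides, was at 1015, 1090.3, 1359.7 and 1379 CPM in *Ypel4*+/+ Poly-E and at 228, 258, 272 and 371 in *Ypel4*+/+ Ortho-E libraries. *Tmpo* in *Ypel4*-/- mice was at 1003, 949, 1190.1 and 1297 CPM in Poly-E libraries and at 193, 206, 250.4 and 338 in Ortho-E. The log2 fold changes of *Tmpo* were -2.06 ± 0.15 and -2.01 ± 0.14.

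The order of the genes by level changed with the population. Per kilobase of exon, *Mki67*, *Hmgb2* and *Tubb4b* led in all 4 groups, with mean levels of 692, 628 and 468 CPM per kb in *Ypel4*+/+ Poly-E and 552, 320.2 and 254 in *Ypel4*+/+ Ortho-E. *Cenpe* went from rank 37 to rank 10 in *Ypel4*+/+ mice, *Cenpa* from 36 to 19 and *Nusap1* from 15 to 6. *Aurkb* went from rank 20 to rank 39, *Tacc3* from 23 to 38 and *Cdk1* from 17 to 30. The ranks in *Ypel4*-/- mice were within 3 of these for the same genes in both populations. The size of the change did not follow the level. Across the 51 genes, the log2 fold change in *Ypel4*+/+ mice had a Pearson r of 0.0418 with log2 CPM in Poly-E and of 0.0991 with log2 exon length, values that come from the same libraries and serve as a description only.

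Genes of the same pathways outside the 51 were read in the same way, from a list of 122 other mitotic genes, of which 120 were tested. In *Ypel4*+/+ mice 97 were called lower and 15 higher, and in *Ypel4*-/- mice 98 lower and 15 higher, with 97 lower and 15 higher in both. Their medians were -1.87 and -1.90. *Ccnb1*, the other main B-type cyclin, had log2 fold changes of -1.30 ± 0.13 and -1.15 ± 0.14, and *Ccna2*, which encodes cyclin A2, -1.98 ± 0.14 and -1.95 ± 0.12. *Plk1*, the polo-like kinase, changed by -2.75 ± 0.17 and -2.74 ± 0.16. The checkpoint genes *Bub1b* (-2.41 ± 0.19 and -2.05 ± 0.14) and *Mad2l1* (-1.76 ± 0.13 and -1.88 ± 0.13) were also lower. *Foxm1* and *Mybl2*, transcription factors that activate G2 and mitosis genes, changed by -2.23 ± 0.15 and -2.27 ± 0.13 in *Ypel4*+/+ mice. *Wee1*, a kinase that inhibits CDK1, had the lowest value of the list in *Ypel4*+/+ mice (-2.95 ± 0.29).

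Of the list, 15 genes rose in both genotypes on the TMM scale. *Pttg1*, which encodes securin, the inhibitor of sister chromatid separation, had the highest value. *Pttg1* was at 27.3, 16.4, 15.1 and 14.4 CPM in *Ypel4*+/+ Poly-E and at 183, 161, 113 and 135 in *Ypel4*+/+ Ortho-E libraries, and its log2 fold changes were 3.07 ± 0.20 and 3.13 ± 0.15. *Fzr1*, which encodes CDH1, the activator of APC/C in late mitosis and G1, was at 428, 393, 578 and 529 CPM in *Ypel4*+/+ Poly-E and at 2175, 1916, 2519 and 2631 in *Ypel4*+/+ Ortho-E libraries. *Fzr1* rose by 2.30 ± 0.14 and 2.63 ± 0.16 on the log2 scale. *Mad2l1bp*, which takes checkpoint complexes apart, rose by 1.94 ± 0.13 and 2.17 ± 0.14. *Rbl2*, *Lin37* and *Lin52* encode parts of the DREAM complex, which represses cell cycle genes in resting cells. Their log2 fold changes in *Ypel4*+/+ mice were 1.47 ± 0.18, 0.66 ± 0.19 and 0.40 ± 0.17. *Lin52* (adjusted p = 0.0418 in *Ypel4*+/+ mice) overlapped between the populations in both genotypes, and *Lin37* overlapped in *Ypel4*-/- mice. The action of the complex was not tested. *Anapc4* (0.57 ± 0.20) and *Anapc7* (0.54 ± 0.15) are subunits of APC/C itself. Of the 17 listed genes of APC/C and securin, 11 were called lower and 4 higher in each genotype. Of the 10 listed transcription factors, 6 were called lower and 3 higher in each genotype. Of all genes, 32.1% were called lower and 26.4% higher in *Ypel4*+/+, and 31.5% and 29.5% in *Ypel4*-/- mice. The remaining genes were *Cdc25b* (0.95 ± 0.14), *Ensa* (0.32 ± 0.12), *Zwint* (1.19 ± 0.12), *Cenpq* (1.32 ± 0.15), *Oip5* (1.38 ± 0.14), *Hn1* (1.02 ± 0.12) and *Cit* (0.92 ± 0.12). On plain library totals *Fzr1*, *Pttg1* and *Mad2l1bp* were the 3 still called higher, in both genotypes.

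Genes of DNA replication fell without exception. All 42 S phase genes were called lower in both genotypes, with medians of -2.09 in *Ypel4*+/+ and -1.98 in *Ypel4*-/- mice and ranges from -2.85 to -1.37 and from -2.37 to -1.15. More than 2-fold lower were 40 of them in *Ypel4*+/+ (95.2%) and 41 in *Ypel4*-/- mice (97.6%), beside 62.7% and 60.8% of the 51 G2 and mitosis genes. The lists differ in size and were not tested against each other.

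**Figure D3:**
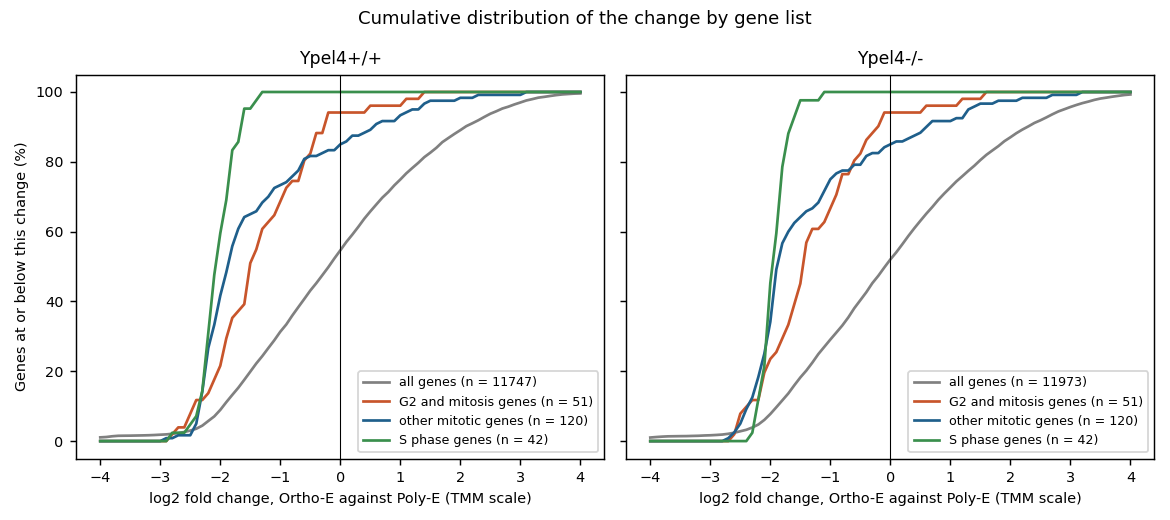
Cumulative percentage of genes by log2 fold change from Poly-E to Ortho-E (TMM scale) in *Ypel4*+/+ (left) and *Ypel4*-/- mice (right). The S phase genes (green, medians -2.09 and -1.98) form a steep curve below 0, whereas the G2 and mitosis genes (orange) and the other mitotic genes (blue) spread over a wider range with a tail above 0. All genes tested are in grey, and on plain library totals every curve lies further left.

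The change was close to the same in the 2 genotypes. All 51 members had the same sign in both, and in 48 the log2 fold changes of the separate fits differed by at most 0.3. Over the 51 genes the changes had a Pearson r of 0.983, as a description of libraries that share no mouse but were sequenced in the same study. In a single fit of all 16 libraries, the difference between the genotypes in the change ran from -0.78 to 0.25 on the log2 scale, with a median of -0.08 and standard errors from 0.15 to 0.46. No member was called (smallest adjusted p = 1), and none of the 13318 genes tested was (0%). With edgeR 1 member had an unadjusted p below 0.05, where 364 of the 13318 genes had. With DESeq2 it was also 1, with no member called by either. With the mouse as a block 4 members had an unadjusted p below 0.05, again with 0 called. For that fit no count over all genes stands beside the 4. Of all genes, DESeq2 and the fit with the block each called 1. *Psrc1* had the lowest value, at -0.78 ± 0.31 (adjusted p = 1), followed by *Ndc80* at -0.40 ± 0.23 (adjusted p = 1). The lower *Psrc1* level of *Ypel4*-/- Ortho-E libraries was thus not separated from the spread between libraries after adjustment.

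Between the genotypes within a population, no member was called. In Poly-E cells the log2 fold changes of *Ypel4*-/- against *Ypel4*+/+ mice ran from -0.15 to 0.03, with a median of -0.07 and standard errors of up to 0.26. Of 12395 genes 1, *Ypel4*, was called (0.00807%), and no member had an unadjusted p below 0.05 with edgeR or with DESeq2. Below that p with edgeR were 271 of all genes. The members with the smallest p were *Lbr* (-0.13 ± 0.10, adjusted p = 1) and *Aurkb* (-0.15 ± 0.13, adjusted p = 1), and the libraries of both genes overlapped between genotypes. Of the 51 members 44 were below 0, beside 49.8% of all genes.

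In Ortho-E cells the range was wider. The log2 fold changes ran from -0.73 to 0.18 with a median of -0.14, and 41 of the 51 were below 0, beside 48.9% of all genes. Of 10521 genes 3 were called (0.0285%), none of them a member (smallest adjusted p = 0.996). An unadjusted p below 0.05 was found for 4 members with edgeR and 4 with DESeq2, beside 387 of all genes with edgeR. *Cdca8* was at 123, 114, 91.3 and 112 CPM in *Ypel4*+/+ and at 89.1, 77.5, 81.1 and 96.3 in *Ypel4*-/- Ortho-E libraries, after 351, 361, 264 and 307 in *Ypel4*-/- Poly-E. The Ortho-E ranges overlapped, and the log2 fold change was -0.33 ± 0.12 (adjusted p = 0.996). *Ndc80* was at 49.01, 29.7, 26.3 and 43.8 CPM in *Ypel4*+/+ and at 29.2, 21.1, 22.3 and 32.4 in *Ypel4*-/- Ortho-E libraries, where its Poly-E values had been 137, 153, 131 and 138 and 145, 147, 103 and 128. Its log2 fold change was -0.48 ± 0.18 (adjusted p = 0.996), and its ranges overlapped too. *Psrc1* (-0.73 ± 0.28) and *Ube2c* (-0.19 ± 0.09) were the other 2 with an unadjusted p below 0.05, named here after their values were seen. *Ube2c* was the only member whose *Ypel4*-/- Ortho-E libraries all lay below the *Ypel4*+/+ libraries, where 1.03% of all genes did. With a term for replicates 1 and 2 against replicates 3 and 4 in the fit, again 0 members were called in either population. With the replicate number as a block, 9 members had an unadjusted p below 0.05 in Ortho-E, with no count over all genes to set beside it. That fit called 15 of all genes and 0 members. Values of different genes come from the same libraries and are not independent of each other.

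**Figure D4:**
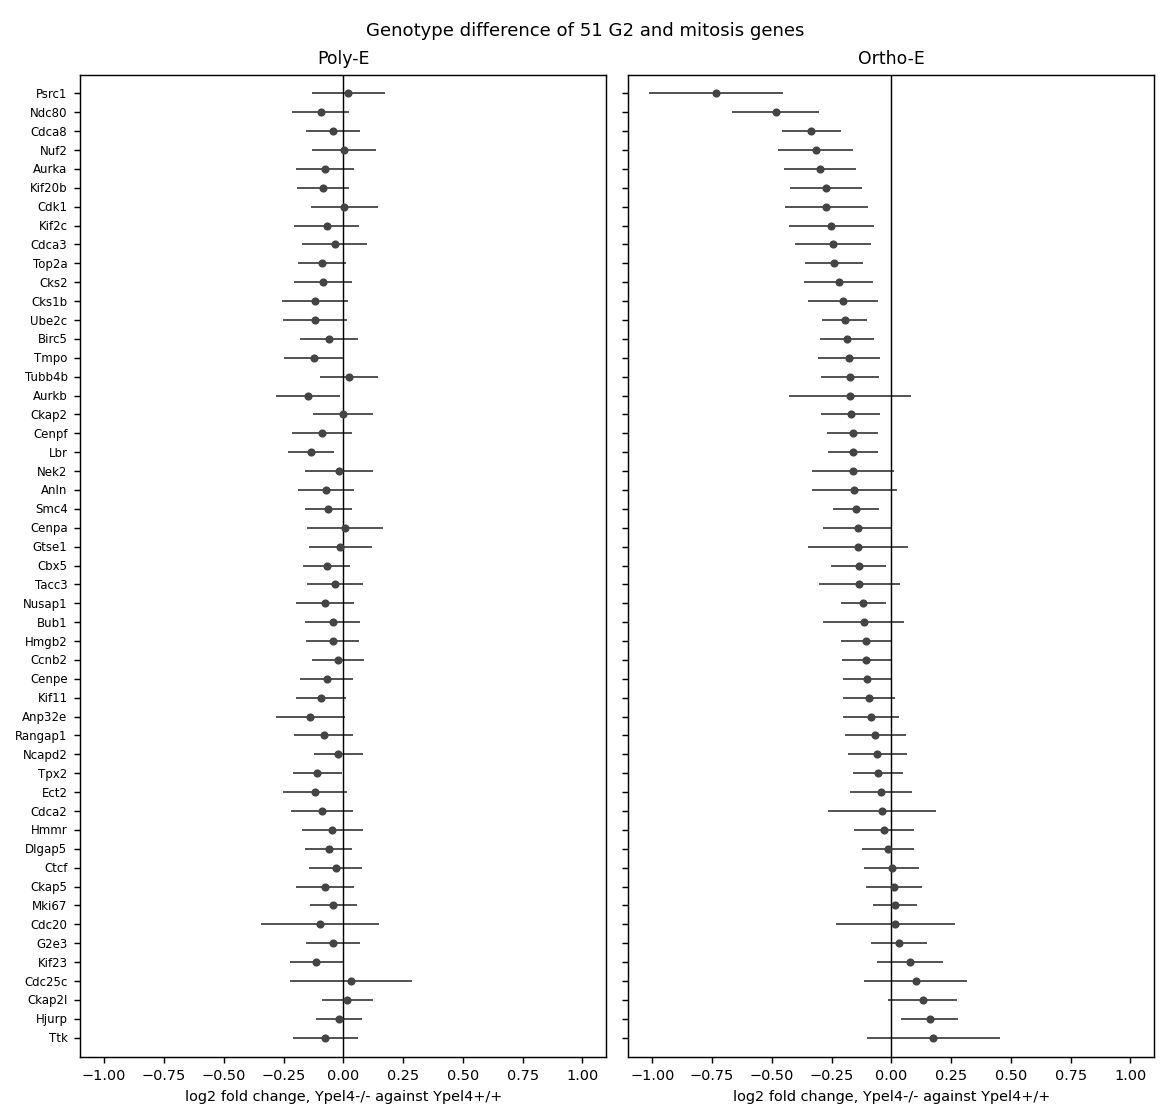
Log2 fold change (TMM scale) of *Ypel4*-/- against *Ypel4*+/+ libraries for each of the 51 genes in Poly-E (left) and Ortho-E (right), with standard errors, in the order of the Ortho-E values. The Poly-E values lie between -0.15 and 0.03, and the Ortho-E values run from -0.73 (*Psrc1*) to 0.18 (*Ttk*). No gene passed an adjusted p of 0.05.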

How the data were processed

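The 16 RNA libraries of sorted Poly-E and Ortho-E were made with a TruSeq RNA v2 kit. The authors ran nf-core/rnaseq on GRCm38 and deposited raw counts per gene, made by featureCounts 1.6.4 from read pairs over exons, per the file headers. Reads that fit several places or several genes were not counted, and strand was not used, so genes with near-identical copies or overlapping exons are uncertain (14 of the 51 share exon bases with another gene).

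Groups were taken from the labels. In R 4.3.3, edgeR 4.0.16 was used for quasi-likelihood tests of the counts, robust and with TMM. A gene entered a fit with 10 or more counts in all of its libraries together, and p-values were adjusted after Benjamini and Hochberg over every gene tested, with a threshold of 0.05. Changes of more than 2-fold were tested with glmTreat. Standard errors were taken from the log2 fold change and its F statistic. Each comparison used the 8 libraries of its 2 groups, and the difference between genotypes used all 16. CPM was scaled by TMM over all 16 libraries, so ratios of mean CPM differ from the fitted fold changes, by more in *Ypel4*-/- than in *Ypel4*+/+ mice. *Mki67* in *Ypel4*-/- Ortho-E was at 81.8% of the Poly-E mean, beside fitted log2 fold changes of -0.11 and, with all 16 libraries, -0.29. The calls of *Mki67*, *Ube2c* and *Cenpa* in *Ypel4*-/- mice changed with this choice. The procedure was also run on simulated counts in which few genes changed, in either direction. They held no broad shift of genes between Poly-E and Ortho-E, so they cannot check the choice of scaling. The alternatives were DESeq2 1.42.0, its size factors, library totals, globin genes left out, other filters, a replicate block, a term for replicates 1 and 2 against 3 and 4, all 16 libraries in a fit, and each library left out.

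The 51 genes and the other lists were chosen with earlier results of these data known. Genes named with values in every library were, in each role, those with the highest mean CPM and with the lowest and highest log2 fold change in *Ypel4*+/+ mice and those not called lower in both genotypes, and in each other comparison the 2 with the smallest p. Library names give the Poly-E and Ortho-E libraries of a replicate a shared number, in 8 of 8 sets, which was read as the mouse. Deviations from the group means correlated between these libraries at 0.487 to 0.651 in *Ypel4*+/+ and at 0.0859 to 0.565 in *Ypel4*-/- mice, over 4835 genes. Between libraries with different numbers the correlations ran from -0.496 to 0.434 and from -0.467 to 0.288. Poly-E libraries of different genotypes, which share no mouse, correlated at up to 0.642. These correlations were positive within replicates 1 and 2 and within replicates 3 and 4, and negative across them, for a reason not tested. The correlations therefore do not settle that the number is the mouse. Nothing else in the labels says that libraries came from separate animals, so the p-values measure the spread between these libraries. Promoter windows came from RefSeq (GRCm38.p6), and no window was found for *Cdc25c*, *Cdca2*, *Aurkb*, *Tpx2*, *Smc4* and *Dlgap5*.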

Additional observations from a re-analysis of the deposited data

Results flagged for a closer look

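In 3 of the 108 groups of 4 libraries that were looked at for the named genes, 1 library lay far from the other 3, with a gap to the nearest of them past the 95% critical value of Dixon's ratio. Chance alone gives about 1 in 20 such groups. *Cdk1* was at 456.1 CPM in *Ypel4*+/+ Poly-E replicate 2, where the others were at 341.2 to 359.7 CPM. *Nusap1* was at 451.6 CPM in *Ypel4*+/+ Poly-E replicate 3, with the others at 526.6 to 535.1 CPM. *Lbr* was at 487.6 CPM in *Ypel4*+/+ Ortho-E replicate 4, and the other libraries of the group were at 349.4 to 358.7 CPM. Each gene kept its call when any single library was left out.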

How the results depend on the processing

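Library totals in place of TMM changed the most. All 3 higher calls were lost (0 members called higher in either genotype), 48 members were lower by more than 2-fold in each genotype, and the members' median became -2.81 in *Ypel4*+/+ and -2.88 in *Ypel4*-/- mice. The background moved as well, with medians of all genes of -1.45 and -1.47. Of all genes tested, 7086 of 11747 in *Ypel4*+/+ and 7288 of 11973 in *Ypel4*-/- mice were called lower on that scale. *Cenpe* turned to -0.27 and -0.32 and *Nusap1* to -0.86 and -0.92. With filterByExpr the median in *Ypel4*+/+ was -1.34, and *Mki67* in *Ypel4*-/- turned to 0.0172, not called before or after. With the replicate block 48 members were called lower and 3 higher in *Ypel4*+/+, and 46 and 3 in *Ypel4*-/- mice, with 0 called in the genotype comparisons and in their difference. With each library left out in turn, 43 to 46 members were lower in *Ypel4*+/+ (28 to 33 by more than 2-fold, median -1.55 to -1.38) and 43 to 47 in *Ypel4*-/- (30 to 31, median -1.55 to -1.39), 3 were higher, and 0 were called between genotypes. Of 1002 alternative values of single genes, 962 kept their direction and side of the threshold, 22 became called, 13 lost their call and 5 reversed. The 2-fold test has no DESeq2 value. Other than as named, the cause of these changes was not tested. Depth limited genes with few counts most, down to 12 counts of *Ttk* in a library.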
